A study of Mus musculus with 18 samples.

Results

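Iron uptake, storage and export were followed through 9 genes: Tfrc, Slc11a2, Slc11a1, Fth1, Ftl1, Ncoa4, Slc40a1, Aco1 and Ireb2. They were picked by gene name from a table of read counts for 56748 genes, each matched 1 row, and all 9 were among the 15450 genes with enough counts to be tested. The counts came from RNA sequencing of mouse macrophages grown from bone marrow of C57BL/6J mice in medium conditioned by L929 cells, which secrete M-CSF, the growth factor of macrophages. The mice were wild type or lacked TLR4, the sensor of bacterial lipopolysaccharide. On day 7 of differentiation the cells of every group were moved to serum-free IMDM and given water, GM or MDP for 24 h. GM is GlcNAc-MurNAc, the disaccharide of bacterial peptidoglycan, and the series title names it a TLR4 agonist. MDP appears in the labels as MurNAc-D-Ala-L-Gln, which differs from the usual muramyl dipeptide, and no dose is stated. The knockout allele is not described. Each of the 6 groups (wild type or knockout, with water, GM or MDP) held 3 libraries, 18 in all. The labels call them biological replicates but name no separate mice or dishes. The p-values therefore cover only the spread among the sequenced libraries, part of which may be technical.

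Iron enters most cells bound to transferrin, which is taken up by the transferrin receptor and gives up its iron in endosomes. Iron that is not used at once is stored inside ferritin shells made of heavy and light subunits, and leaves the cell only through ferroportin. Macrophages are the main recyclers of iron in the body, since they take up old red cells and return the metal to plasma. They also withhold iron from microbes during infection. Much of this is set after transcription: the iron regulatory proteins bind hairpins in the messages of these genes when iron is scarce, which blocks translation of messages with a hairpin in the 5′ untranslated region and protects messages with hairpins in the 3′ untranslated region from decay. RNA levels therefore report protein only in part.

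Hairpins that a strict search found in these messages are printed here because the importer and the exporter differ in where they hold them. GENCODE M21 transcripts (GRCm38) were searched for an unpaired C, 5 paired bases with G-T pairs allowed, and the loop CAGTGN, on the transcript's own strand. Capitals mark the loop of 6 bases. Each line is the coding strand written 5′ to 3′, 30 bases long.
Fth1, 5′ untranslated region: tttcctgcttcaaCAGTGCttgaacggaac
Ftl1, 5′ untranslated region: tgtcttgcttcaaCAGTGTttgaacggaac
Slc40a1, 5′ untranslated region: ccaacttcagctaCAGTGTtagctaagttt
Tfrc, 3′ untranslated region: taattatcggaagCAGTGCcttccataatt
Tfrc, 3′ untranslated region: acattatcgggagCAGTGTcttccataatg
Tfrc, 3′ untranslated region: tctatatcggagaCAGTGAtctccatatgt
Tfrc, 3′ untranslated region: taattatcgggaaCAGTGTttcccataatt
The Fth1 hairpin lay in 4 of 5 transcripts with a 5′ untranslated region, that of Ftl1 in 1 of 2 and that of Slc40a1 in 1 of 4. All 4 Tfrc hairpins lay in the transcript Tfrc-201. By the same rule 31 of 20916 genes (0.148%) had such a match in a 5′ untranslated region and 129 of 21045 (0.613%) in a 3′ untranslated region. A match is a description of the letters, not a test of binding, and a gene without a match may hold a hairpin of another form.

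Total counts ran from 15532973 to 21128507 per library. Levels are given as CPM, counts scaled to a common library size, or, for comparisons between genes, as the authors' FPKM, which also divide by gene length. Tlr4 itself lay at 36.5 to 52.9 CPM in the 9 knockout libraries and at 117 to 230 CPM in the 9 wild-type libraries. All 10 macrophage markers were detected in each group, with a summed level of 24976 to 33159 CPM, whereas 12 erythroid markers, hemoglobin genes among them, summed to at most 1.38 CPM in any library. Wild-type replicates were uneven. Water replicate 3 stood apart, with 5.88% of its counts in the ferritin genes Fth1 and Ftl1, against 3.19% and 3.45% in replicates 1 and 2. GM replicates 1, 2 and 3 held 4.35%, 2.95% and 5.20%. In wild-type water, markers of stroma (10 genes) summed to 301, 271 and 57.9 CPM in replicates 1 to 3, and 16 cell cycle genes to 695, 620 and 353 CPM. In knockout libraries the ferritin share was 2.58% to 3.15%.

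**Figure D1:**
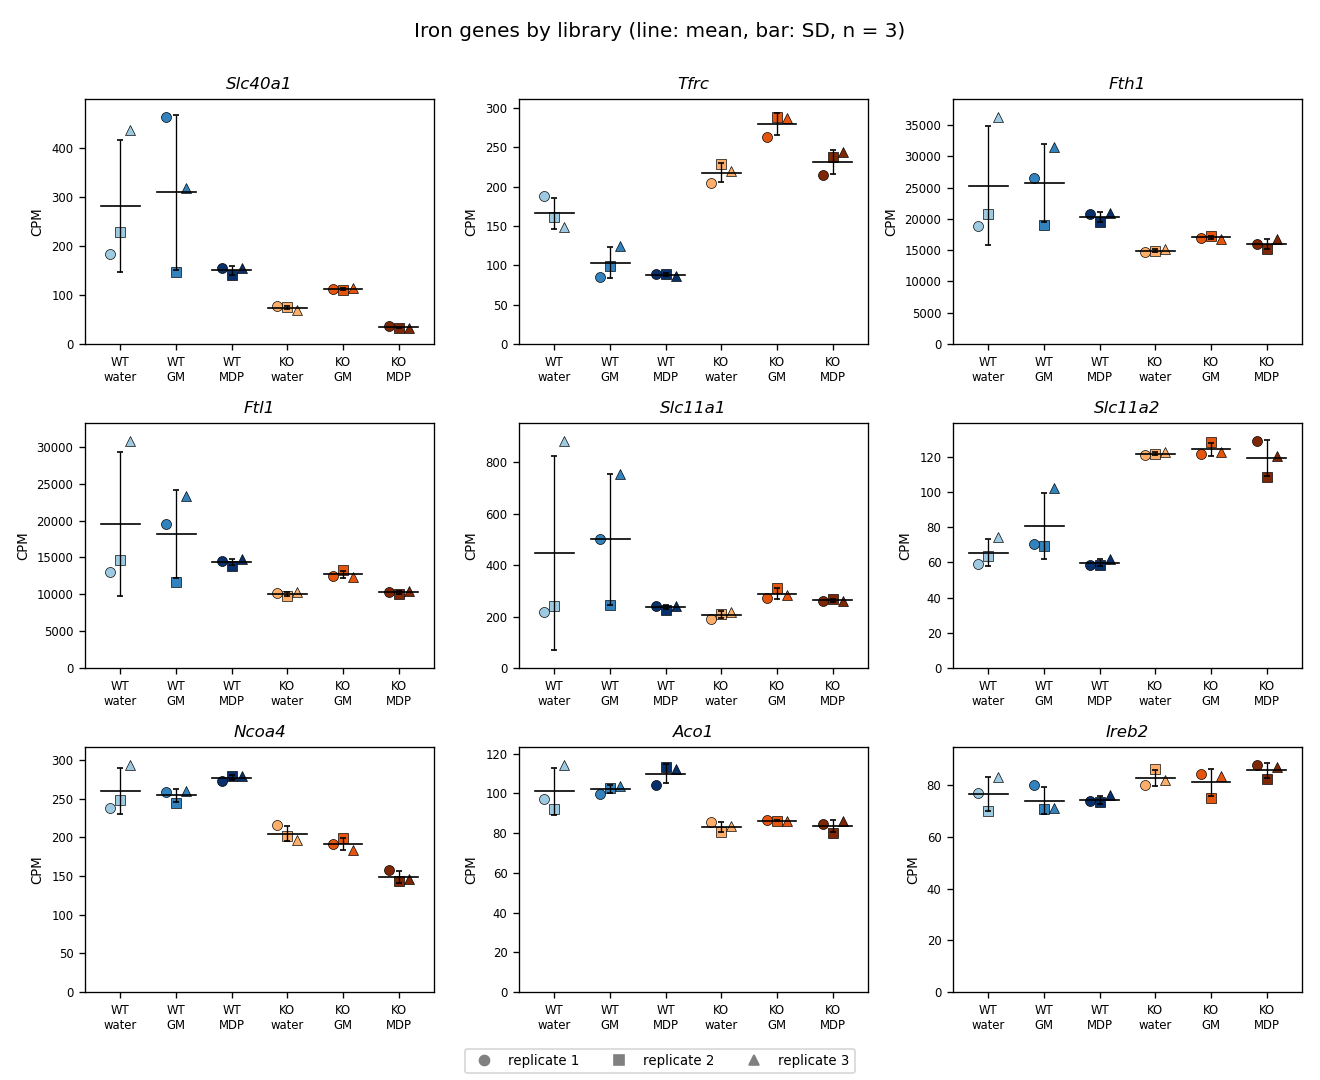
Levels of the 9 iron genes in each of 18 libraries (vertical axis in CPM, from 0). Points are libraries, shaped by replicate number, lines are group means and bars are SD (n = 3). The wild-type water and GM groups spread widely for Slc40a1, Fth1, Ftl1 and Slc11a1, and all knockout libraries lie above all wild-type libraries for Tfrc and Slc11a2.

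Per length, ferritin stood far above the rest. In wild-type water, mean FPKM was 14439 for Ftl1 and 7242 for Fth1, followed by 119 for Slc11a1. Replicate 3 set the last of these, with Slc11a1 libraries at 58.4, 64.5 and 235 FPKM and a mean of 61.5 without it. Without it the means were 10334 for Ftl1 and 5709 for Fth1. A middle tier came next, with 31.1 for Slc40a1, 27.6 for Ncoa4, 26.7 for Tfrc and 22.3 for Aco1. Their library ranges overlapped, except that every Ncoa4 library was above every Aco1 library. Without replicate 3 Tfrc led this tier, at 28.2, and Slc40a1 was at 22.8. Below it lay Slc11a2 at 10.2 and Ireb2 at 8.04, whose ranges did not overlap. Ftl1 was above Fth1 per length in every library, with a ratio of Fth1 to Ftl1 FPKM between 0.455 and 0.628. Such orders rest on the gene lengths used, for example 3469 bases for Fth1 and 1340 for Ftl1. In CPM, which is not divided by length, Fth1 was above Ftl1 in every library. In knockout water the FPKM order of the genes below ferritin differed. Tfrc, at 35.0 FPKM, followed Slc11a1 at 55.6, Slc11a2 at 19.1 lay above Aco1 at 18.4, and Slc40a1 dropped to 8.22, where its libraries overlapped with those of Ireb2 at 8.69.

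Genes were called changed at an adjusted p below 0.05 in edgeR's quasi-likelihood test with Benjamini-Hochberg adjustment over all 15450 genes, fitted on the libraries compared. In wild-type cells GM against water called none of the 9 members, against 0.608% of all genes, while 1 had an unadjusted p below 0.05 (Tfrc), as did 6.31% of all genes. DESeq2 called none of them either, among 356 genes called, and limma-voom with a spread per group called 1, Tfrc, among 182. MDP against water in wild type called 1, Tfrc, which fell, against 8.34% of all genes called and 3.72% called lower. GM against MDP in wild type called none (9.99% of all genes), with 3 members at an unadjusted p below 0.05, as were 29.6% of all genes. For that comparison DESeq2 called 2 members and limma-voom 3, among 2618 and 2668 of the 15450 genes. In bulk RNA, fewer cells of a type and less RNA per cell cannot be told apart, here and in each result that follows.

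Knockout cells gave more calls. With GM, 5 of 9 members rose (Slc40a1, Slc11a1, Tfrc, Ftl1 and Fth1), against 7.84% of all genes called and 3.61% called higher. The members' median log2 fold change was 0.19, beside -0.0034 over all genes. With MDP, Slc40a1 and Ncoa4 fell and Slc11a1 rose, 3 of 9 against 19.2% of all genes (10% lower and 9.16% higher). GM against MDP gave 5 of 9 higher with GM (Slc40a1, Ncoa4, Ftl1, Tfrc and Slc11a1), against 16.4% of all genes called and 8.08% called higher. Knockout against wild type in water called 2 of 9, Slc40a1 lower and Slc11a2 higher, against 14.6% of all genes (8.3% lower and 6.32% higher). The GM and MDP comparisons share their water libraries. The replicates of knockout groups were close to each other, and a fit of all 18 libraries, which lends them the wider wild-type spread, called none of the 5 GM rises, only Ncoa4 with MDP, and 3 instead of 1212 genes overall for GM.

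**Figure D2:**
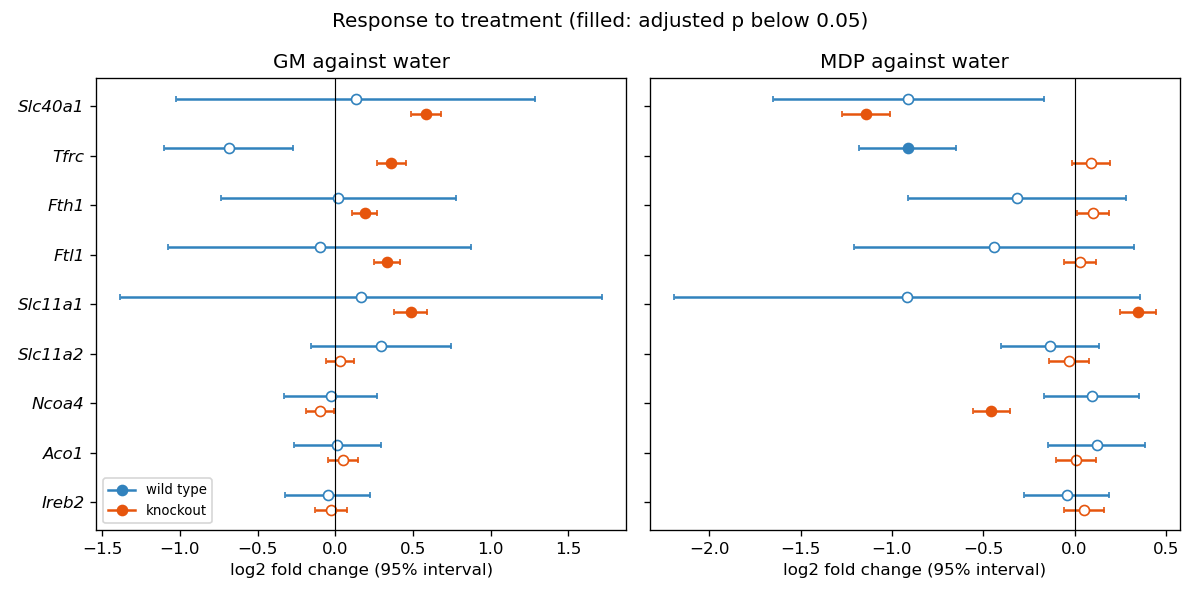
Log2 fold change of each gene with GM (left) and MDP (right) against water, with 95% intervals, in wild-type (blue) and knockout cells (orange). Filled points have an adjusted p below 0.05. The intervals are wide in wild type, and for Tfrc they lie on opposite sides of 0 in the 2 genotypes with GM.

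Tfrc encodes the transferrin receptor, the main gate for transferrin-bound iron (ENSMUSG00000022797, GRCm39 chromosome 16, 32427738 to 32451612, plus strand). In wild-type cells its level was 188, 162 and 149 CPM in the 3 water libraries, 85.6, 99.7 and 125 with GM, and 89.1, 89.1 and 86.3 with MDP. Every treated library was below every water library. The MDP mean, 88.2 ± 1.63 CPM (SD, n = 3), was 53.1% of the water mean of 166 ± 19.7 (log2 fold change -0.91, SE 0.11, edgeR adjusted p = 0.0070). The GM mean, 103 ± 19.8 CPM, was 62.2% of water (-0.69, SE 0.17), which did not pass (adjusted p = 0.312). The MDP call was lost when any 1 of the 3 MDP libraries was left out, with edgeR adjusted p of 0.0556 to 0.0597 and log2 fold changes of -0.92 to -0.90. Without water replicate 3 it was -0.99 (adjusted p = 6.6e-10).

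In knockout cells Tfrc went the other way with GM. It was at 204, 228 and 220 CPM in water, 263, 289 and 287 with GM and 214, 237 and 244 with MDP. Each GM library lay above each water library, and the rise was 1.28-fold (log2 0.36, SE 0.05, edgeR adjusted p = 4.56e-07). MDP and water overlapped (log2 0.09, SE 0.05). The difference between genotypes was tested directly over 12 libraries. The GM response was lower in wild type than in knockout by 1.05 on the log2 scale (difference -1.05, SE 0.19, edgeR adjusted p = 0.0243), 1 of 9 members called against 0.939% of all genes and 0.0129% in that direction. The MDP response differed by -1.004 (SE 0.13, adjusted p = 0.000876). For MDP, 2 of 9 members were called, Tfrc lower and Ncoa4 higher in wild type, against 7.97% of all genes (3.34% lower and 4.63% higher). The MDP difference was called in all 12 fits that left out 1 library. The GM difference was called in 3 of 12, those without wild-type water replicate 3, wild-type GM replicate 1 or wild-type GM replicate 3. In the other fits it ranged from -1.09 to -0.95 with adjusted p of 0.0534 to 0.092.

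Dividing cells need iron and are known for high transferrin receptor levels, so cell cycle genes are given beside Tfrc. The 16 genes summed to 353 to 695 CPM in wild-type water, 321 to 573 with GM and 793 to 873 with MDP. In knockout they summed to 1166 to 1271 in water, 992 to 1022 with GM and 782 to 844 with MDP. In knockout, 12 of 16 fell with GM and 15 of 16 with MDP. Of all genes, 7.84% and 19.2% were called in either direction, and 654 and 1548 of 15450 were called lower. Tfrc rose there with GM and overlapped with water under MDP. For GM against MDP in knockout, 11 of 16 were higher (8.08% of all genes), as was Tfrc (0.27). In knockout against wild-type water 6 of 16 were higher (6.32% of all genes), with Tfrc at 0.39, not passing. In wild type none of the 16 was called against water. There 5 were lower with GM than with MDP (681 of 15450 genes), and Tfrc was not called. In wild type the MDP libraries had higher sums and lower Tfrc than the water libraries. The part of the cell cycle genes in the Tfrc levels was not tested.

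Slc11a2 encodes DMT1, which moves ferrous iron out of endosomes after transferrin uptake (ENSMUSG00000023030, chromosome 15, 100285779 to 100322953, minus strand). Its main contrast was genotype. Wild-type water libraries were at 59.0, 63.3 and 74.4 CPM and knockout water libraries at 121, 122 and 123. The knockout mean of 122 ± 0.744 CPM was 1.86-fold the wild-type mean of 65.6 ± 7.94 (log2 0.89, SE 0.11, edgeR adjusted p = 0.00537), and all 6 fits that left out 1 library called it. No knockout library of any treatment overlapped with a wild-type library: the former ran from 108 to 129 CPM and the latter from 58.3 to 102. Within knockout the treatments lay close together, at 124 ± 3.67 with GM and 119 ± 10.4 with MDP. In wild type, GM libraries were at 70.2, 69.2 and 102 CPM and MDP libraries at 58.7, 58.3 and 61.9. These did not overlap, but the difference of 0.43 (SE 0.16) did not pass (edgeR adjusted p = 0.114). Without GM replicate 2 it was 0.53 and passed (adjusted p = 0.025).

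Slc11a1, or NRAMP1, is the related transporter of phagosomes, which draws metal ions away from engulfed microbes (ENSMUSG00000026177, chromosome 1, 74414354 to 74425221, plus strand). In wild type 1 library set the picture: water replicates 1 and 2 were at 217 and 240 CPM and replicate 3 at 884. GM libraries were at 502, 246 and 756 CPM, and MDP libraries at 242, 226 and 240. Water and GM overlapped, and the GM response of 0.17 (SE 0.65) became 1.14 (SE 0.45) without water replicate 3, not passing in either case (edgeR adjusted p = 0.273 without it). GM against MDP gave 1.09 (SE 0.35, edgeR adjusted p = 0.095), with all GM libraries above all MDP libraries. Leaving out GM replicate 2 raised it to 1.41 (adjusted p = 0.000599).

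Knockout values of Slc11a1 were tighter. Water libraries were at 192, 211 and 218 CPM, GM libraries at 274, 313 and 282, and MDP libraries at 261, 268 and 260. Both treatments lay above water without overlap. The rise was 1.40-fold with GM (log2 0.48, SE 0.05, edgeR adjusted p = 5.29e-07) and 1.27-fold with MDP (0.35, SE 0.05, adjusted p = 5.25e-07). The MDP rise did not pass under limma-voom with a spread per group (adjusted p = 0.156). GM exceeded MDP by 0.14 (SE 0.05, edgeR adjusted p = 0.0371), a call made in only 1 of the 6 fits that left out 1 library. Without GM replicate 2 that difference was 0.08. Neutrophil markers, genes of another phagocyte that carries NRAMP1, summed to 79.6 to 147 CPM in knockout water, 225 to 286 with GM and 163 to 255 with MDP over 10 genes. Of the 10, 1 was at 0 in each of these groups. Only S100a8 (up to 141 CPM) and S100a9 (up to 127) exceeded 13.1 CPM in any library. Of 7 tested, 0 were called against water with GM and 1 with MDP, against 7.84% and 19.2% of all genes. Their part in the Slc11a1 rise was not tested.

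Fth1 encodes the heavy subunit of ferritin, which oxidizes iron for storage (ENSMUSG00000024661, chromosome 19, 9957962 to 9962462, plus strand). Wild-type water libraries held 18918, 20775 and 36272 CPM, GM libraries 26565, 19015 and 31442, and MDP libraries 20720, 19424 and 20878. All 3 groups overlapped (GM against water 0.02, SE 0.32, and MDP against water -0.32, SE 0.25, on the log2 scale). Without water replicate 3 the MDP value was 0.04. Knockout water libraries held 14703, 14901 and 15159 CPM, GM libraries 16961, 17330 and 16758, and MDP libraries 15971, 15199 and 16818. GM lay above water in knockout by 1.14-fold (log2 0.19, SE 0.04, edgeR adjusted p = 0.00114). MDP also lay above water there, by 0.10 (SE 0.04), without passing (adjusted p = 0.112).

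Ftl1 encodes the light subunit, which helps the iron core form (ENSMUSG00000050708, chromosome 7, 45107368 to 45109308, minus strand). Its wild-type libraries followed those of Fth1, with 13057, 14698 and 30788 CPM in water, 19594, 11698 and 23329 with GM, and 14519, 13894 and 14723 with MDP. Here too the groups overlapped, with -0.10 (SE 0.41) for GM and -0.44 (SE 0.32) for MDP, the latter 0.05 without water replicate 3. Knockout water libraries held 10191, 9769 and 10258 CPM, GM libraries 12495, 13241 and 12330, and MDP libraries 10251, 10088 and 10492. GM stood above both, 1.26-fold over water (log2 0.33, SE 0.04, edgeR adjusted p = 2.63e-07) and 1.23-fold over MDP (0.30, SE 0.05, adjusted p = 2.99e-06). Under limma-voom with a spread per group, the GM rises of Fth1, Ftl1 and Slc11a1 over water in knockout did not pass, with adjusted p of 0.175, 0.0552 and 0.0869.

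Between genotypes in water, both ferritin genes were lower in every knockout library than in any wild-type library. The difference was -0.76 (SE 0.25) for Fth1 and -0.95 (SE 0.33) for Ftl1, and neither passed in the edgeR fit of the 6 libraries (adjusted p = 0.0902 and 0.0983). Both passed with DESeq2 (adjusted p = 0.0277 and 0.0262), with limma-voom and a spread per group (0.00489 and 0.00707) and in the edgeR fit of all 18 libraries (0.00793 and 0.0121). Wild-type water replicate 3 decided the size of these values. Without it the differences were -0.41 (SE 0.05, adjusted p = 2.67e-09) and -0.46 (SE 0.05, adjusted p = 3.32e-10). Reads of ferritin can be shared with copies of the gene. The row Ftl1-ps1 held 0.83% of the count of Ftl1, and Gm10252, which overlaps Ftl1 on the opposite strand, held 10.1%. Whether counting used strand is not stated, so reads of that pair cannot be told apart.

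**Figure D3:**
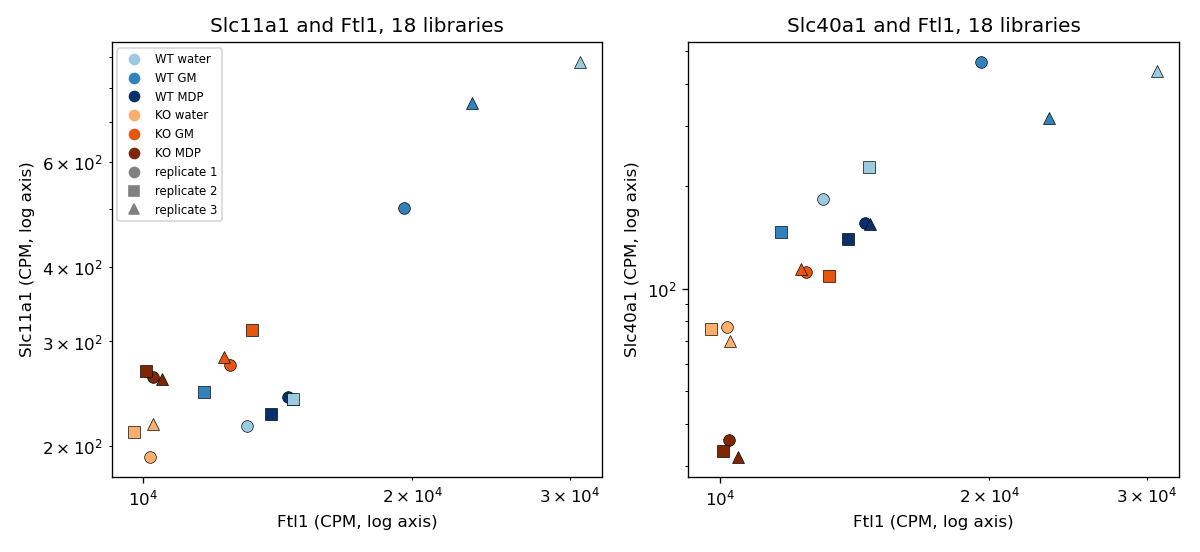
Slc11a1 (left) and Slc40a1 (right) against Ftl1 in 18 libraries, CPM on log axes, coloured by group and shaped by replicate. Wild-type water replicate 3 and wild-type GM replicates 1 and 3 lie at the upper end for all 3 genes, apart from the other wild-type libraries.

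Ncoa4 is the receptor that carries ferritin to lysosomes, where its iron is freed (ENSMUSG00000056234, chromosome 14, 31881822 to 31901812, plus strand). It separated the genotypes under MDP. Wild-type libraries were at 238, 248 and 294 CPM in water, 259, 245 and 260 with GM and 273, 279 and 279 with MDP. Knockout libraries were at 216, 201 and 197 in water, 192, 199 and 184 with GM, and 158, 143 and 146 with MDP. In knockout the MDP libraries lay below all others, and the mean fell to 72.9% of water (log2 fold change -0.46, SE 0.05, edgeR adjusted p = 2.37e-09). Wild-type MDP and water overlapped (0.09, SE 0.11). The MDP response was higher in wild type than in knockout by 0.55 (SE 0.12, edgeR adjusted p = 0.0172). That call was lost without knockout water replicate 1, knockout MDP replicate 2 or knockout MDP replicate 3, with adjusted p of 0.0513 to 0.0523 and values of 0.51 to 0.53. The pseudogene row Ncoa4-ps held 18.3% of the count of Ncoa4, and reads may be split between them.

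Slc40a1 encodes ferroportin, the only known exporter of iron from mammalian cells (ENSMUSG00000025993, chromosome 1, 45947228 to 45965683, minus strand). It had the largest fold changes of the 9 genes in knockout cells. There it was at 76.9, 76.3 and 69.9 CPM in water, 111, 109 and 114 with GM, and 35.8, 33.3 and 32.0 with MDP, with no overlap between the 3 treatments. GM raised it 1.497-fold (log2 0.58, SE 0.05, edgeR adjusted p = 4.53e-11). MDP lowered it to 45.3% of water (-1.14, SE 0.07, adjusted p = 4.64e-17). The cells given GM thus held 3.31-fold the level of those given MDP (1.72, SE 0.06, edgeR adjusted p = 2.15e-27). All 6 fits that left out 1 library called each of these 3 differences. No other member was called in opposite directions with GM and MDP in 1 genotype by this test.

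In wild-type cells Slc40a1 was at 184, 227 and 435 CPM in water, 463, 147 and 318 with GM, and 156, 140 and 155 with MDP. GM spanned the whole range of water. MDP lay below each water library, at 53.2% of the mean (log2 fold change -0.91, SE 0.31), and did not pass (edgeR adjusted p = 0.126). Without water replicate 3 the MDP difference was -0.45 (SE 0.08) and passed (adjusted p = 0.000949). DESeq2 on all 6 libraries also called it (adjusted p = 0.0417). GM against MDP gave 1.04 (SE 0.36, edgeR adjusted p = 0.109), and 1.38 (adjusted p = 0.000437) without GM replicate 2, the GM library that overlapped with MDP. The MDP response did not differ detectably between genotypes (difference 0.23, SE 0.35). Its 95% interval, -0.53 to 0.99, is wide. Without wild-type water replicate 3 the difference was 0.69 (SE 0.10, edgeR adjusted p = 1.81e-05).

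Between genotypes the levels of Slc40a1 were far apart. The knockout water mean, 74.4 ± 3.86 CPM, was 26.4% of that in wild type, 282 ± 135 (log2 fold change -1.92, SE 0.32, edgeR adjusted p = 0.0138). It was -1.46 (adjusted p = 1.53e-08) without wild-type water replicate 3. Leaving out any 1 of the knockout water libraries lost the call, with adjusted p of 0.0781 to 0.0831. Over all treatments, knockout libraries ran from 32.0 to 114 CPM and wild-type libraries from 140 to 463. Stroma markers moved in the same direction as Slc40a1 between genotypes, with 8 of 9 tested lower in knockout water, against 8.3% of all genes. They summed to 57.9 to 301 CPM in wild-type and 15.4 to 20.9 CPM in knockout water, and all 10 were detected in both groups. Within wild-type water the library with the lowest stroma sum had the highest Slc40a1. Dendritic cell markers (8 genes) were lower in knockout water as well, 2 of 6 tested, with none called higher. They summed to 1226 to 1626 CPM in wild-type and 710 to 736 CPM in knockout water. Of these markers, only Itgax and Ccr7 exceeded 47.3 CPM in any library. The part of stroma or dendritic cells in the genotype difference was not tested.

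The genes of the 2 iron regulatory proteins were not called by edgeR in any of the 9 comparisons, and 1 had an unadjusted p below 0.05, Aco1 between genotypes in water. Aco1 encodes IRP1, which doubles as cytosolic aconitase when it holds an iron-sulfur cluster (ENSMUSG00000028405, chromosome 4, 40143081 to 40198338, plus strand). It ran from 91.9 to 114 CPM in wild-type and from 80.2 to 86.5 CPM in knockout libraries, without overlap. In water the difference was -0.28 (SE 0.11, edgeR adjusted p = 0.121) and did not pass. The fit of all 18 libraries called it (adjusted p = 0.00797), as did the fit without wild-type water replicate 3 (-0.19, adjusted p = 0.00622). Aco1 lies 26.5 Mb from Tlr4 on the same chromosome. Ireb2 encodes IRP2, which is degraded when iron is plentiful (ENSMUSG00000032293, chromosome 9, 54771073 to 54819814, plus strand). Its group means ran from 74.1 to 85.8 CPM, the libraries of the 2 genotypes overlapped, and its fitted log2 fold changes lay between -0.05 and 0.05 for each treatment against water. The interval for GM in wild type, -0.32 to 0.23, still allows a modest change.

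Counted over all treatments, 6 of 9 members had no overlap between the 9 wild-type and the 9 knockout libraries, against 12.7% of all genes tested (6.52% lower and 6.2% higher in knockout). Slc40a1, Fth1, Ncoa4 and Aco1 were lower in knockout, and Tfrc and Slc11a2 were higher. Ftl1, Slc11a1 and Ireb2 overlapped. Since the labels name no separate mice or dishes, loss of TLR4 cannot be told apart from other differences between wild-type and knockout cultures. In water alone, 7 of 9 members had an unadjusted p below 0.05, beside 32.6% of all genes, and 2 of the 9 passed edgeR's adjusted threshold. The others included Tfrc, at 0.39 (SE 0.11, adjusted p = 0.0648), and Ncoa4, at -0.35 (SE 0.11, adjusted p = 0.0807). Slc11a1 was at -1.11 (SE 0.54), and at -0.14 (SE 0.05) without wild-type water replicate 3. Without that library all 9 members passed, among 7226 genes called in place of 2258.

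The ratio of Tfrc to Slc40a1 sets importer against exporter in each library. Its size depends on the gene lengths used, 6185 bases for Tfrc and 9000 for Slc40a1. In wild-type water the CPM mean of Slc40a1 was the higher, at 282 against 166. The ratio was chosen after the values were seen and is a description with no test. In FPKM it was 1.49, 1.04 and 0.498 in wild-type water, 0.269, 0.989 and 0.570 with GM, and 0.834, 0.927 and 0.811 with MDP. In knockout it was 3.87, 4.36 and 4.58 in water, 3.44, 3.85 and 3.67 with GM, and 8.72, 10.4 and 11.1 with MDP. Every knockout library exceeded every wild-type library, and the MDP libraries of the knockout were the highest. The FPKM ratio of Slc11a1 to Slc11a2, a ratio of RNA and not of transport, was 6.30, 6.49 and 20.4 in wild-type water. Its mean of 11.1 became 6.40 without replicate 3. It averaged 10.4 with GM and 6.80 with MDP in wild type, and 2.92 to 4.002 in the knockout groups.

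**Figure D4:**
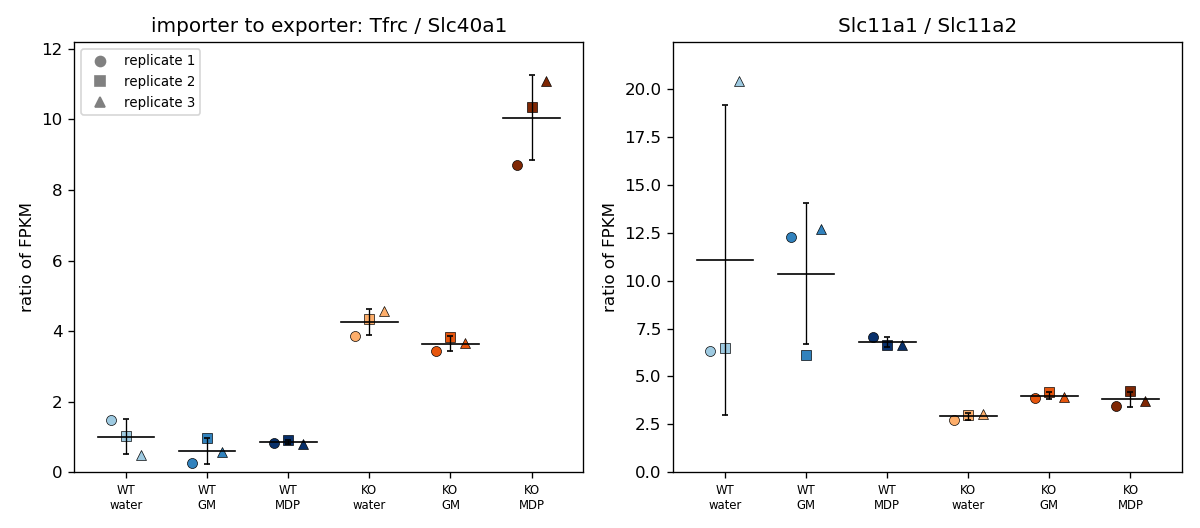
Ratio of FPKM for Tfrc over Slc40a1 (left) and Slc11a1 over Slc11a2 (right) in each of 18 libraries, with group mean and SD (n = 3), on linear axes from 0. Tfrc over Slc40a1 averages 10.1 in knockout cells with MDP and at most 1.01 in any wild-type group.

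Genes whose log2 CPM followed a member most closely over the 18 libraries were listed by Pearson's r, 2 for each member among genes with a mean of at least 10 CPM. The libraries share genotype, treatment and depth differences, so r describes these libraries only. Fth1 was most like Gclc, which makes the first step of glutathione synthesis (r = 0.985), and Mtfr1l (0.978). Ftl1 was most like Ftl1-ps1 (0.988), its own copy, and the stress cytokine Gdf15 (0.984). Slc11a1 came with Esd (0.982) and the glutathione reductase gene Gsr (0.9802). Slc40a1 came with Akr1a1 (0.968) and the lysosomal lipase gene Lipa (0.961). Tfrc was most like Rnf168 (0.955), which lies on the same strand 307 kb before it (chromosome 16, 32096277 to 32120252), and Cebpd (0.943). Slc11a2 was nearest to Gng12 (0.970) and Ctnnb1 (0.968), Ncoa4 to Ncoa4-ps (0.984) and Cd300lb (0.967), and Aco1 to Rubcn (0.955) and Pde7b (0.946). Ireb2, which varied least, had the lowest values, 0.880 for Zfp958 and 0.870 for Tug1. Among the members, Fth1 and Ftl1 had r = 0.982, and Slc40a1 and Tfrc had -0.59.

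Other iron genes were counted in lists. Against water, the share of all genes called was 0.608% with GM and 8.34% with MDP in wild type. In knockout it was 7.84% with GM and 19.2% with MDP. Of 10 tested genes of the transferrin cycle and other uptake routes, 1 rose with GM in wild type: Lcn2, a siderophore-binding protein that keeps iron from bacteria, went from 2.90 ± 2.57 to 101 ± 39.4 CPM (log2 5.12, SE 0.69, edgeR adjusted p = 0.0372). Neutrophils also make Lcn2, and 10 neutrophil markers summed to 8.32 to 52.1 CPM in wild-type water, 14.9 to 41.0 with GM and 58.0 to 80.1 with MDP. With MDP in wild type 2 uptake genes rose and 2 fell, while 2 of 7 tested neutrophil markers rose, and the part of the latter was not tested. Lcn2 rose to 27.7 ± 2.10 CPM (3.25, SE 0.56, edgeR adjusted p = 0.0196) and Trf, transferrin itself, by 0.48. Slc39a14, the ZIP14 importer of free iron, fell by 1.11 and Steap2, a ferrireductase, fell from 1.25 to 0.0398 CPM. In knockout with MDP, 4 of the 10 rose and 1 fell. Tfr2, the second transferrin receptor, rose 1.33 on the log2 scale from 0.707 to 1.75 CPM. Lcn2 rose 1.28 on the log2 scale from 106 ± 16.4 CPM in water, Trf rose by 0.41, and Steap3, the endosomal ferrireductase that works with the transferrin receptor, fell by 0.62. The list's median in that comparison was 0.15. With GM in knockout 1 of 10 fell, the metal importer Slc39a8, at -0.61.

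Genes of heme uptake and breakdown were called in both directions in knockout cells, where 4 of 12 rose and 2 fell with GM. The share of all genes called there was 7.84% with GM and 19.2% with MDP. Hmox1, the heme oxygenase that frees iron from heme, went from 387 ± 14.6 to 602 ± 11.2 CPM (log2 0.64, SE 0.04, edgeR adjusted p = 2.76e-14). Blvrb, a biliverdin reductase, rose by 0.60 and Spic, a transcription factor of iron-recycling macrophages, by 1.25. Flvcr2, a transporter of the heme exporter family, fell by 0.89. With MDP, 3 of the 12 rose and 4 fell: Hp, haptoglobin, rose by 0.88 and Hmox1 by 0.34, while Flvcr2 fell by 1.33 and Lrp1, a hemopexin receptor, fell by 0.21. With MDP in knockout 1 of 7 tested neutrophil markers rose, and their part in the Lcn2 and Hp rises was not tested. In wild-type cells 1 of 12 was called with MDP, Lrp1, which fell by 0.63. The list's median for GM in knockout was 0.07 and for MDP 0.03.

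Among 7 tested genes of iron chaperones, ferritin handling and control of the regulatory proteins, 2 rose with GM in knockout and 2 rose and 1 fell with MDP. Over all genes, 7.84% were called with GM and 19.2% with MDP in knockout. Fbxl5, the iron-sensing ligase subunit that degrades IRP2, rose by 0.34 with GM (81.9 to 104 CPM, SE 0.05, edgeR adjusted p = 1.82e-06) and by 0.52 with MDP (SE 0.05, adjusted p = 6.59e-10), and Skp1, its partner, by 0.16 and 0.19. Tax1bp1, an autophagy receptor linked to ferritin, fell by 0.14 with MDP. Ireb2 itself did not pass in any of these comparisons. Of 17 genes of mitochondrial iron, heme and iron-sulfur synthesis, 3 rose with MDP in knockout, near the 19.2% of all genes called (9.16% higher). The mitochondrial importer Slc25a37 led them, from 43.0 ± 6.16 to 92.9 ± 9.73 CPM (1.11, SE 0.11, edgeR adjusted p = 6.64e-05), with Slc25a28 and the scaffold gene Iscu at 0.32 and 0.26. With GM in knockout 1 of 17 rose, Alas1, by 0.16, and with MDP in wild type 1 rose, Iscu, by 0.49.

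Export partners and the hepcidin axis were scarce, with summed levels of 6.63 to 30.8 CPM over 9 genes. In wild type with MDP, 3 of 5 tested fell: Bmp6, an inducer of hepcidin, from 1.20 CPM to 0 in all 3 libraries, Heph, the ferroxidase hephaestin, from 2.73 to 0.0979 CPM, and Neo1 from 5.96 to 1.73 CPM. Stroma markers fell with them, 6 of 9 tested, against 3.72% of all genes called lower in that comparison. Their sums went from 57.9 to 301 CPM to 15.6 to 22.6 CPM, with 1 of 10 at 0. Bmp6, Heph and Neo1 were also lower in knockout than in wild-type water, a comparison that shares those wild-type libraries, beside the stroma sums given above for Slc40a1. The part of stroma in these falls was not tested. Hamp, hepcidin, rose with MDP in knockout from 0.107 ± 0.186 CPM in water to 0.584 ± 0.156 CPM (SD, n = 3). These levels are near the limit of detection, and Hamp was at 0 in 5 of the 18 libraries. Cp, the ferroxidase ceruloplasmin, fell with GM in knockout by 0.64, from 5.93 to 3.82 CPM. Of 4 tested further genes with a known iron-responsive hairpin, 1 passed in knockout against wild-type water, beside 14.6% of all genes. That gene was Epas1, which encodes HIF-2 alpha and was at 4.28 against 10.4 CPM (-1.28, SE 0.29, edgeR adjusted p = 0.0334).

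Between genotypes in water, 1 of 10 uptake genes was higher and 2 lower in knockout. Over all genes, 14.6% were called there (8.3% lower and 6.32% higher). Lcn2 was at 106 ± 16.4 CPM in knockout against 2.90 ± 2.57 CPM (log2 5.19, SE 0.58, edgeR adjusted p = 0.00453), and Slc39a14 was at 17.5 against 42.1 CPM (-1.27). Steap2 was at 0 in all 3 knockout libraries against 1.25 CPM. Of the 12 heme genes 2 were higher and 1 lower, with Hp at 203 against 22.3 CPM (3.19, SE 0.46, edgeR adjusted p = 0.00936) and Slc48a1, a lysosomal heme transporter, at 296 against 553 CPM (-0.90). Flvcr2 was at 4.32 against 1.28 CPM (1.75). Of 17 mitochondrial genes 1 was higher in knockout, Slc25a37 (1.16), and 2 were lower, the iron-sulfur cluster gene Glrx5 and Alas1, which starts heme synthesis (both -0.62). Neutrophils also make Hp, and neutrophil markers were higher in knockout water, 2 of 7 tested, with sums of 79.6 to 147 CPM against 8.32 to 52.1 CPM. Of the 10 markers, 1 was at 0 in knockout water and 2 were at 0 in wild-type water. Their part in the Lcn2 and Hp differences was not tested.

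GM and MDP were also set against each other directly. In wild type, 3 of 10 uptake genes were higher with GM and 2 lower, while 9.99% of all genes were called. Lcn2 was at 101 CPM with GM against 27.7 CPM with MDP (1.87), Slc39a14 at 46.7 against 19.5 CPM (1.26) and Steap2 at 1.01 against 0.0398 CPM, while Hfe, which tunes hepcidin, was at 17.0 against 35.0 CPM (-1.04). Of 12 heme genes 3 were higher and 1 lower, with Spic at 0.83, Slc48a1 at 0.74, Lrp1 at 0.52 and the second heme oxygenase gene Hmox2 at -0.45. Cp (0.77) and Slc25a37 (0.99) were higher with GM, as was Hamp, at 0.545 ± 0.0603 against 0.0174 ± 0.0301 CPM, near the limit of detection. Beside these, 5 of 9 tested stroma markers were higher and 2 of 7 neutrophil markers lower with GM, and their part was not tested.

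In knockout, 2 of 10 uptake genes were higher with GM than with MDP and 3 lower, while 16.4% of all genes were called. Steap3 was higher by 0.43, whereas Lcn2 (-0.79), Trf (-0.28) and Tfr2 (-1.54) were lower. Of the 12 heme genes 5 were higher, among them Spic (0.74), Blvrb (0.54) and Slc48a1 (0.46), and Hp was lower (-0.95). Tax1bp1 was higher (0.18) and Fbxl5 lower (-0.17). Slc25a37 (-1.04), Slc25a28 (-0.34), Iscu (-0.21) and Cp (-0.87) were lower with GM, and Fech, the last enzyme of heme synthesis, was higher (0.21).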

How the data were processed

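Poly(A)-enriched directional libraries were made from total RNA, per the labels. Per the submitters' processing notes, HISAT2 2.0.5, featureCounts 1.5.0-p3 and build GRCm39 were used. Settings, strand use and the annotation release are not given in the sources used here. The authors deposited raw read counts per gene and a table of FPKM, which equals the counts divided by gene length and by a library size 0.889 to 1.06 times the total count. FPKM, computed by the authors, served only to compare genes within libraries.

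Counts were tested with edgeR 4.0.16 in R 4.3.3 (filterByExpr, minimum count 10, TMM over 18 libraries; 15450 genes kept). Quasi-likelihood F tests, 2-sided and robust, were fitted on the 6 libraries compared, or 12 for genotype differences, because the spread differed between groups, and adjusted by Benjamini-Hochberg over all kept genes. SE belongs to the fitted log2 fold change, computed here. The fit was tested on simulated data with the same spread in every gene and group, so that check does not cover the unequal spread here. Alternatives used DESeq2 1.42.0, limma 3.58.1, other scaling and filters, a replicate block, ferritin copies added to their parents, and each library left out. Members, gene lists and tests were chosen with earlier results of these data known. The text names all 9 members, Tlr4, up to 4 called genes per list and comparison with the largest change and no overlap, and the 2 genes most like each member; any other gene was picked after its values were seen. Some genes that meet this rule are not reported here. Within each group the libraries differed by more than sampling noise, so none was counted as a duplicate.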

Additional observations from a re-analysis of the deposited data

Results flagged for a closer look

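The responses named here differed between genotypes in a test of the difference itself, over 12 libraries with edgeR's quasi-likelihood test and Benjamini-Hochberg adjustment. The Tfrc response to GM in wild type minus that in knockout was -1.047 on the log2 scale (adjusted p = 0.0243), with every wild-type GM library below every wild-type water library and every knockout GM library above every knockout water library. That GM difference was called in 3 of 12 fits that left out 1 library and was not called with the replicate block. The wild-type GM fall alone did not pass (edgeR adjusted p = 0.312). The Tfrc response to MDP differed by -1.004 (adjusted p = 0.000876), called in all 12 such fits. The Ncoa4 response to MDP differed by 0.5498 (adjusted p = 0.0172), with MDP below water in each knockout library and overlapping with water in wild type. It was called in 9 of 12 fits that left out 1 library.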

How the results depend on the processing

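The counts of the 9 members called were recomputed under other settings, and a change of sign was looked for where a member had been called; none was seen in the settings run. RLE scaling and adding ferritin copies to their parents kept every count of calls within 1.5 times, and so did testing without the filter on low counts. DESeq2 moved 3 counts: MDP against water in wild type from 1 to 2, GM against MDP in wild type from 0 to 2, and knockout against wild type in water from 2 to 6. The fit of all 18 libraries moved 6: GM against water in wild type to 1, GM against MDP in wild type to 2, GM in knockout from 5 to 0, MDP in knockout from 3 to 1, GM against MDP in knockout from 5 to 2, and knockout against wild type to 7. With limma-voom and a spread per group the counts became 1 for GM in wild type, 3 for GM against MDP there, 2 for knockout GM, 2 for knockout MDP and 5 for knockout against wild type. Leaving out 1 library gave 0 to 0 members for GM in wild type, 0 to 4 for MDP in wild type, 0 to 5 for GM against MDP there, 5 to 5 for knockout GM, 3 to 4 for MDP in knockout, 4 to 5 for GM against MDP in knockout, 1 to 9 for knockout against wild type in water, 0 to 1 for the GM difference between genotypes and 1 to 5 for the MDP difference. The highest counts came without wild-type water replicate 3 (4, 9 and 5) or without wild-type GM replicate 2 (5). The cause was not tested.

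Counts over all genes moved by more than 1.5 times as well. GM in wild type went from 94 to 356 (DESeq2), 729 (all 18 libraries), 182 (limma-voom) and 166 (replicate block). MDP in wild type went from 1288 to 2457, 3810 and, with the block, 387, and to 5479 without wild-type water replicate 3. GM against MDP in wild type went from 1544 to 2618, 3001 and 2668. For the knockout, GM went from 1212 to 3 (all 18) and 603 (limma-voom), MDP from 2963 to 427 and GM against MDP from 2532 to 242. Knockout against wild type went from 2258 to 3593, 5110 and, with the block, 855, and to 7226 without wild-type water replicate 3. The GM difference went from 145 to 317 and 287, and the MDP difference from 1232 to 1962 with DESeq2. Leaving out 1 library gave 0 to 288 genes for GM in wild type, 187 to 5479 for MDP, 209 to 4478 for GM against MDP, 329 to 7226 for knockout against wild type, 71 to 557 for the GM difference and 647 to 4044 for the MDP difference.

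Whether the replicate numbers pair the samples cannot be settled with 3 libraries per group, and the main test fitted no pairing. The correlation of same-numbered deviations was above 0.1 for all 3 numbers in none of the 7 comparisons of 2 groups. For GM against water in wild type it was -0.246, 0.767 and 0.721. Between 1 and 5 of 6 libraries per comparison correlated best with their own number, the 5 for GM against MDP in wild type. With the replicate block the GM difference between genotypes went from 1 member called to 0 (Tfrc -1.06, edgeR adjusted p = 0.0504), and GM against MDP in knockout from 5 to 4. With 3 libraries per group, every statement rests on few samples. Mean FPKM and ratios in wild-type water without replicate 3 were added after the values were seen.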
